A study of Arabidopsis thaliana with 6 samples.

Results

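The genes described here are 38 genes of mitosis and cytokinesis of Arabidopsis thaliana: cyclin-dependent kinases (CDKs) and their small subunits, A- and B-type cyclins, MYB3R transcription factors, activators of anaphase and spindle checkpoint proteins, Aurora kinases and other spindle and centromere proteins, and proteins of the phragmoplast and cell plate. They were chosen by locus code, matched to the systematic name that the array files give for each probe. Earlier results of these data were known at that point, so counts set beside all genes describe the list and are no independent test. All 38 had a probe that passed the signal filter, out of 24458 genes tested. The samples were whole fertilised flowers at floral stage 15, compared between wild type and atnaod, a mutant that the labels mark as T-DNA. The mutated gene, AtNAOD (AT4G17830), encodes N-acetylornithine deacetylase, which makes ornithine. The wild-type accession, the number of T-DNA alleles and the position of the insertion are not given in the sources used here. Plants of both genotypes grew on soil at 25 °C with 16 h of light and 8 h of dark. Each genotype had 3 independent replicates, each a pool of about 100 flowers from 17 to 20 plants on 1 single-colour array, so that every value is an average over all organs and cell types of the flower.

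In plants, CDKA;1 acts throughout the cell cycle, whereas B-type CDKs and B-type cyclins are made mainly from late S phase to mitosis. MYB3R factors bind the promoters of many of these late genes. Division ends with the phragmoplast, a microtubule array along which vesicles are brought to the growing cell plate. After fertilisation, divisions go on in the embryo, in the endosperm and in the surrounding maternal tissues of the young seed and fruit.

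AtNAOD was read first as a check of the labels. It stood at 1.77, 1.62 and 1.69 in wild type 1 to 3 but was not well above background in any atnaod sample, at least 369-fold lower. Here and below, a level is the log2 processed intensity minus the 75th percentile of its array, and a difference is atnaod minus wild type on that log2 scale. That percentile was 1318 to 3007 intensity units over the 6 arrays, with 73.2% to 79.2% of probes read well above background. One slide, scanned at one time, carried wild type 1 and 2 and atnaod 1 and 2, and a second carried wild type 3 and atnaod 3, so slide and scan cannot be told apart. Probes differ in brightness for the same amount of RNA, so levels are compared between samples and not between genes.

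Of the 38 genes, 36 had a lower mean in atnaod than in wild type, against 51.2% of all genes tested. The median difference of the 38 was -0.39, or 23.6% lower, and the differences ran from -0.61 for the checkpoint gene MAD2 to 0.24 for the A-type cyclin CYCA2;1. The median over all genes tested was -0.01. No single gene of the 38 passed limma's test at an adjusted p of 0.05 over all genes, where 5.78% of all genes were called, 3.06% lower and 2.72% higher. The smallest adjusted p was 0.0506, for MAD2. At an unadjusted p under 0.05, 24 of the 38 were lower, against 13.9% of all genes, and 1 was higher, against 11.9%. With the replicate number as a block, limma called 5 of the 38 lower, against 2.72% of all genes, and none higher. The 5 were MAD2, the cyclins CYCA3;1, CYCB1;1 and CYCB2;2, and the cell plate syntaxin KNOLLE. Samples 1 and 2 also correlated across numbers on their shared slide, and with the slide in place of the number as the block KNOLLE did not pass (adjusted p 0.0599) while the other 4 did. Under other settings limma called 6 lower with the slide as a block (4.6% of all genes), 8 with a trended and robust prior (5.02%) and 15 with array weights (8.92%). Quantile normalization gave 1, where 1470 of all genes were called. None of the 38 was called with median centring, the deposited values, all probes kept, the mean over probes or the first slide alone. Nor was any called with normexp, a model-based background correction. In these settings 4 to 1460 of all genes were called. Leaving out 1 sample also gave none, except without atnaod 1. Whole flowers were measured, so fewer dividing cells and less RNA in each dividing cell cannot be told apart.

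**Figure D1:**
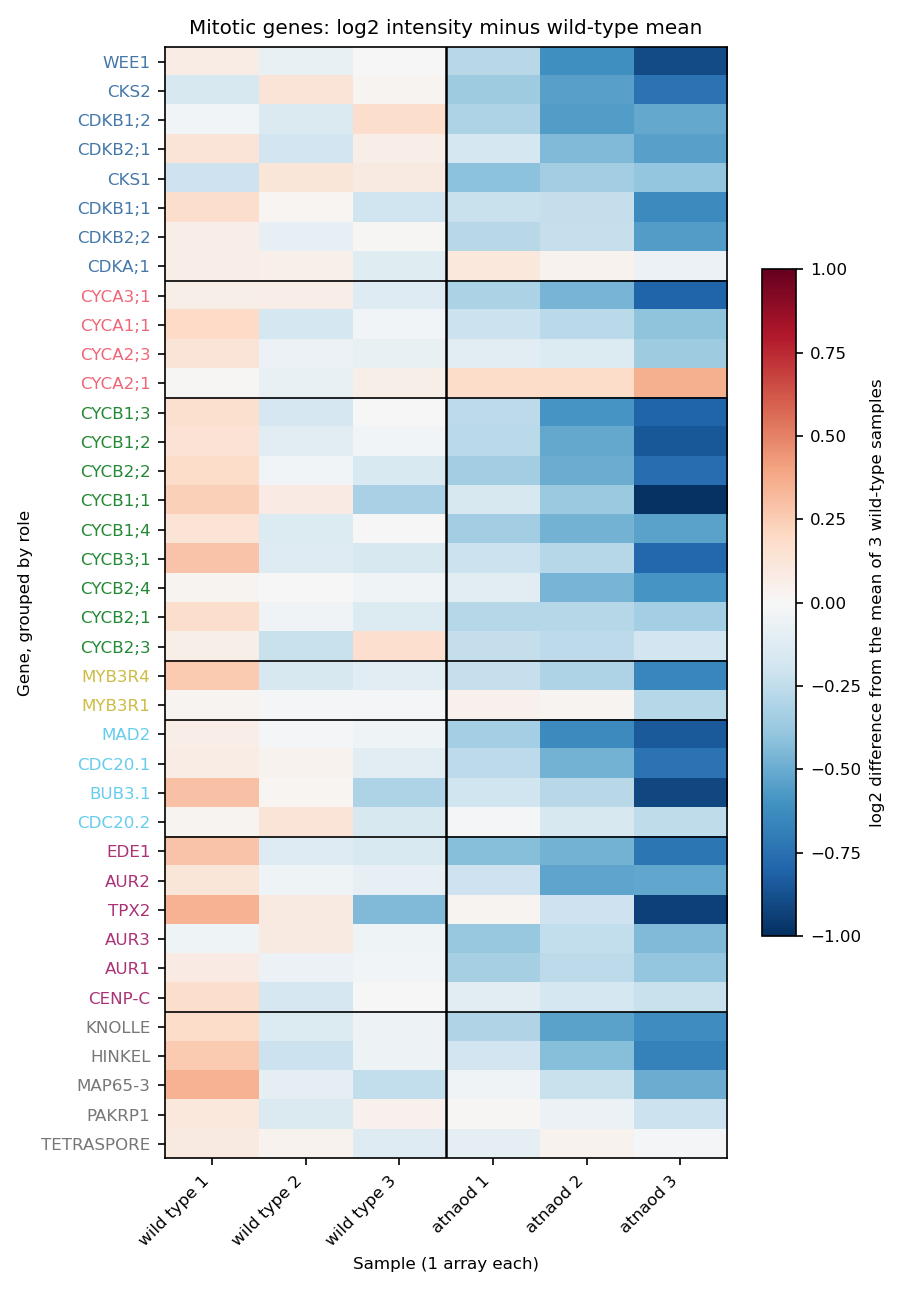
Level of each of the 38 genes in each of the 6 samples (columns), shown as log2 level minus that gene's wild-type mean, with genes in rows by role and colour running from lower to higher. The 3 atnaod columns lie below the wild-type mean for most genes, with medians of -0.23, -0.30 and -0.55 in atnaod 1 to 3.

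Sample by sample, the 38 genes had a median of 0.12, -0.06 and -0.05 relative to their wild-type means in wild type 1 to 3. In atnaod 1 to 3 the medians were -0.23, -0.30 and -0.55. All 3 atnaod samples thus lay below all 3 wild-type samples on this measure, and atnaod 3 lay lowest. In 24 of the 38 genes every atnaod value was below every wild-type value, which held for 17% of all genes. In 1 gene, CYCA2;1, every atnaod value was above every wild-type value, against 15.3% of all genes, and in the other 13 the groups overlapped. Samples of the same number could also be set against each other, and 33 of the 38 genes were lower in atnaod in all 3 of these pairs, against 28.2% of all genes. CYCA2;1 was higher in all 3, and CDKA;1, MYB3R1, TETRASPORE and PAKRP1 were mixed.

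The median difference of the CDKs and their partners was -0.38. At an unadjusted p under 0.05, 7 of these 8 genes were lower, against 13.9% of all genes. The exception was CDKA;1 (AT3G48750), the CDK with the PSTAIRE motif that acts in both S phase and mitosis. CDKA;1 levels were 0.47, 0.45 and 0.28 in wild type 1 to 3 against 0.51, 0.44 and 0.34 in atnaod 1 to 3. These values overlapped, and the 95% interval of the difference, from -0.20 to 0.26, spanned 0. The 4 B-type CDKs, which are specific to plants, all stood lower. CDKB1;2 (AT2G38620) was at -0.93, -1.06 and -0.74 in wild type against -1.22, -1.47 and -1.42 in atnaod, a difference of -0.46 (SE 0.119, limma adjusted p 0.0692) with no overlap. CDKB1;1 (AT3G54180), CDKB2;1 (AT1G76540) and CDKB2;2 (AT1G20930) differed by -0.37, -0.39 and -0.36, and CDKB2;1 was the one of these whose groups overlapped.

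CKS1 (AT2G27960) and CKS2 (AT2G27970) encode small proteins that dock CDKs on phosphorylated substrates. CKS2 levels were 0.88, 1.17 and 1.07 in wild type against 0.68, 0.50 and 0.30 in atnaod. The groups did not overlap and the difference was -0.55 (SE 0.130, limma adjusted p 0.0565), equal to 31.5% lower. CKS1 differed by -0.38, also without overlap. The 2 genes neighbour each other in the genome and are closely related copies, and whether each probe reads only its own transcript was not tested. WEE1 (AT1G02970), a kinase that restrains CDKs when DNA is damaged or replication is blocked, was at -4.01, -4.16 and -4.09 in wild type against -4.36, -4.70 and -4.98 in atnaod. Its difference of -0.59 (SE 0.158, limma adjusted p 0.0742) put this inhibitor of CDKs on the same side as the B-type CDKs. The size depended on the background correction, at -0.36 in the deposited values, which have no background subtracted. With normexp, a model-based correction, it was -1.34, and -0.33 with normexp modified so that 5 spots of wild type 1 with very high local background took the array's median.

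**Figure D2:**
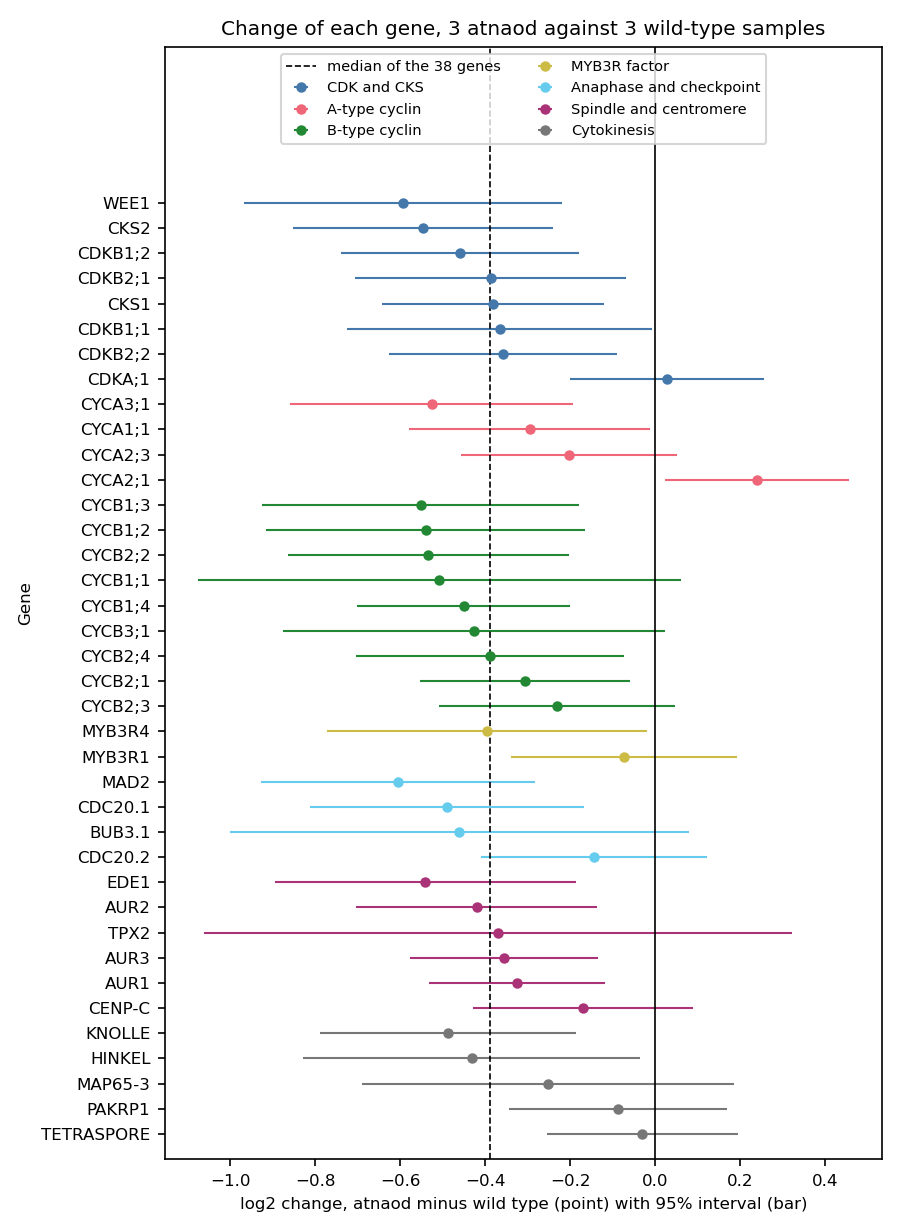
Difference of each gene, atnaod minus wild type in log2 units (x axis), as a point with its 95% interval from limma as a bar, 3 samples per genotype, coloured by role. The dashed line is the median of the 38 genes at -0.39, and CDKA;1 and CYCA2;1 are the 2 genes with points above 0.

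The A-type cyclins differed among themselves, with 3 of 4 below 0, against 51.2% of all genes, and a median of -0.25. CYCA3;1 (AT5G43080), of the A3 class that is expressed around S phase, was at -2.85, -2.84 and -3.03 in wild type against -3.22, -3.37 and -3.71 in atnaod. It differed by -0.53 (SE 0.141, limma adjusted p 0.0750) with no overlap, and it passed the test with the replicate block (adjusted p 0.0487). CYCA1;1 (AT1G44110) and CYCA2;3 (AT1G15570) differed by -0.29 and -0.20. CYCA2;1 (AT5G25380) went the other way, with -5.05, -5.14 and -5.01 in wild type against -4.88, -4.88 and -4.71 in atnaod, a difference of 0.24 (SE 0.0920, limma adjusted p 0.161). This difference was 0.091 (SE 0.230) in the deposited values and 0.087 (SE 0.202) with modified normexp. A2-type cyclins partner B1-type CDKs and restrain endoreduplication, and here CYCA2;1 and CYCA2;3 had differences of opposite sign, each without passing the adjusted test.

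All 9 B-type cyclins had a lower mean in atnaod, and their median of -0.45 equalled 26.8% less signal. Each was lower in all 3 pairs, against 28.2% of all genes. Of the 9, 6 were lower at an unadjusted p under 0.05, against 13.9% of all genes. In 7 the groups did not overlap, against 17%. CYCB1;1 (AT4G37490), widely used as a reporter of cells in G2 and mitosis, was at -2.06, -2.22 and -2.63 in wild type against -2.46, -2.67 and -3.29 in atnaod. The groups overlapped, and sample 3 was the lowest of both genotypes. The difference of -0.51 had an SE of 0.241 and a limma adjusted p of 0.238 without the replicate block, and an SE of 0.0915 and an adjusted p of 0.0495 with it. Without atnaod 3 the difference was -0.27.

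The other B1 cyclins lay at much the same distance. CYCB1;2 (AT5G06150) and CYCB1;3 (AT3G11520) differed by -0.54 and -0.55. CYCB1;4 (AT2G26760) was at -0.88, -1.16 and -1.01 in wild type against -1.36, -1.49 and -1.55 in atnaod, a difference of -0.45 (SE 0.106, limma adjusted p 0.0557), with a gap between the groups. Of the B2 class, CYCB2;2 (AT4G35620) was at -2.01, -2.23 and -2.34 in wild type against -2.54, -2.69 and -2.95 in atnaod. That difference of -0.53 (SE 0.140) had a limma adjusted p of 0.0711, and 0.0423 with the replicate block. CYCB2;1 (AT2G17620), CYCB2;3 (AT1G20610) and CYCB2;4 (AT1G76310) differed by -0.31, -0.23 and -0.39, and the groups of CYCB2;3 overlapped. CYCB3;1 (AT1G16330), of a class related to animal cyclin B3, differed by -0.43 with a limma adjusted p of 0.214.

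The 2 MYB3R genes both had a lower mean in atnaod, by unequal amounts. MYB3R4 (AT5G11510), an activator of genes of G2 and mitosis, was at -1.54, -1.97 and -1.92 in wild type against -2.04, -2.12 and -2.46 in atnaod, a difference of -0.40 (SE 0.160, limma adjusted p 0.180) with no overlap. MYB3R1 (AT4G32730), which can act as activator and as repressor, was at -1.95, -1.98 and -1.99 in wild type against -1.93, -1.95 and -2.26 in atnaod. Its groups overlapped, and its interval ran from -0.34 to 0.19. Whether the 2 differences differ from each other was not tested.

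MAD2 (AT3G25980), a spindle checkpoint protein that holds back anaphase until chromosomes are attached, had the lowest difference of the 38. Its levels were -0.98, -1.07 and -1.09 in wild type against -1.38, -1.68 and -1.88 in atnaod, with a clear gap between the groups. The difference was -0.61 (SE 0.136), or 34.3% lower, with a limma adjusted p of 0.0506, and 0.0470 with the replicate block. BUB3.1 (AT3G19590), of the same checkpoint, was at -0.46, -0.73 and -1.06 in wild type against -0.95, -1.03 and -1.66 in atnaod, overlapping, with a difference of -0.46 (SE 0.228). CDC20.1 (AT4G33270) encodes an activator of the anaphase-promoting complex, the ubiquitin ligase that destroys mitotic cyclins. It was at 0.79, 0.74 and 0.60 in wild type against 0.45, 0.24 and -0.03 in atnaod, a difference of -0.49 (SE 0.137, limma adjusted p 0.0816) without overlap. Its neighbouring copy CDC20.2 (AT4G33260) differed by -0.14, with overlapping groups and an interval from -0.41 to 0.12. The probes of these related copies could also read each other's transcripts, which was not tested.

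**Figure D3:**
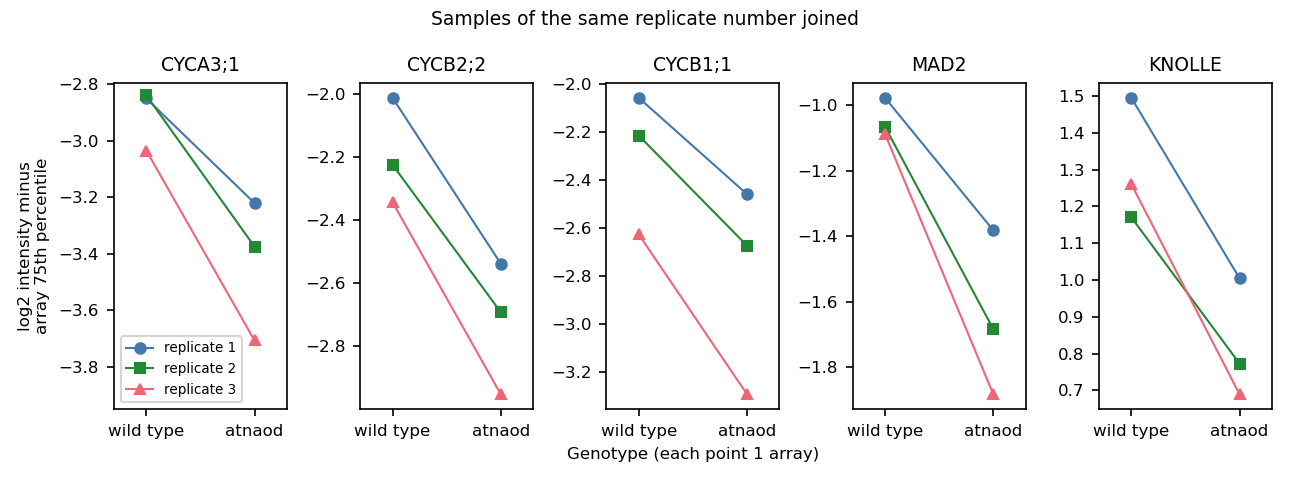
Level of the 5 genes that passed the test with the replicate block (one panel each, y axis in log2 units relative to the array's 75th percentile), with the wild-type and atnaod samples of the same number joined by a line. All 15 lines slope down. The genes were chosen by that test, so the shared slope adds no separate evidence. In CYCB1;1 sample 3 is the lowest of both genotypes.

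All 6 spindle and centromere genes had a lower mean in atnaod, with a median of -0.36. They were lower in all 3 pairs, against 28.2% of all genes. In the 3 Aurora kinases, which phosphorylate spindle, cell plate and centromere proteins, every atnaod value was below every wild-type value, against 17% of all genes. AUR1 (AT4G32830) was at 0.25, 0.10 and 0.13 in wild type against -0.17, -0.10 and -0.22 in atnaod, a difference of -0.33 (SE 0.0873, limma adjusted p 0.0751). AUR2 (AT2G25880) and AUR3 (AT2G45490) differed by -0.42 and -0.35. EDE1 (AT2G44190) encodes a microtubule protein needed for division in the endosperm. It was at -2.89, -3.30 and -3.32 in wild type against -3.60, -3.64 and -3.90 in atnaod, a difference of -0.54 (SE 0.150, limma adjusted p 0.0806), again without overlap.

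TPX2 (AT1G03780), which nucleates spindle microtubules and activates Aurora kinase, varied more between slides than between genotypes. Its levels were -1.15, -1.41 and -1.94 in wild type against -1.47, -1.70 and -2.44 in atnaod, so that wild type 3 was below atnaod 1 and 2. The difference was -0.37, with an SE of 0.292 and a limma adjusted p of 0.474 without the block, and an SE of 0.0858 and an adjusted p of 0.0667 with it. It ranged from -0.59 without wild type 3 to -0.087 without atnaod 3, and was -0.19 without wild type 1 and -0.57 without atnaod 1. CENP-C (AT1G15660), a protein of the inner kinetochore, differed by -0.17, with overlapping groups and an interval from -0.43 to 0.09.

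The 5 cytokinesis genes spread from KNOLLE (AT1G08560) to TETRASPORE (AT3G43210). KNOLLE, the syntaxin that fuses vesicles at the cell plate, was at 1.496, 1.171 and 1.261 in wild type against 1.005, 0.773 and 0.689 in atnaod. Every atnaod value was below every wild-type value, and the difference was -0.49 (SE 0.128), or 28.6% lower, with a limma adjusted p of 0.0715, and 0.0467 with the replicate block. HINKEL (AT1G18370), a kinesin that activates the mitogen-activated protein kinase cascade of the phragmoplast, was at -0.05, -0.53 and -0.36 in wild type against -0.51, -0.74 and -0.99 in atnaod. Its difference of -0.43 came with an unadjusted p under 0.05 but with overlapping groups.

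TETRASPORE, the closest relative of HINKEL and best known from cytokinesis after male meiosis, was at -0.65, -0.69 and -0.86 in wild type against -0.83, -0.70 and -0.76 in atnaod. The difference of -0.03 had an interval from -0.25 to 0.20. PAKRP1 (AT4G14150), a kinesin of the phragmoplast midline, differed by -0.09, and MAP65-3 (AT5G51600), which cross-links microtubules there, by -0.25 (SE 0.185). In these 3 genes the groups overlapped. All 5 cytokinesis genes were below 0, against 51.2% of all genes, and 2 were lower at an unadjusted p under 0.05, against 13.9%. The groups did not overlap in 1 of the 5, which is near the 17% of all genes.

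The 38 genes had 45 probes in all, each well above background on all 6 arrays and none saturated. Of the 38, 6 had more than 1 probe, and all 13 of their probes gave differences below 0. The 3 probes of KNOLLE gave -0.49, -0.53 and -0.31, and the 2 probes of CDKB1;2 gave -0.46 and -0.55. No probe passed limma's test adjusted over all probes.

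The slides gave differences of unequal size. On the first slide, with 2 samples per genotype, the median of the 38 genes was -0.33. On the second, with 1 per genotype and so no test, it was -0.54. The difference was below 0 for 35 of the 38 on each slide. It was lower on the second slide than on the first, whatever its sign, for 32 of the 38, against 12161 of all 24458 genes. Taken by sample number, the median differences were -0.35, -0.30 and -0.54 for numbers 1, 2 and 3. The median was thus below 0 on both slides, and its size moved with the samples used: without atnaod 3 the median was -0.29, and without atnaod 1 it was -0.50, the lowest and the highest distance from 0 of the 6 fits that each left out 1 sample. Without atnaod 1, limma called 8 of the 38 lower (against 3.61% of all genes), among them MAD2, CKS2, WEE1 and CDC20.1. Without each of the other 5 samples it called none. Single genes moved more than the median: without atnaod 3 the difference of 11 of the 38 changed sign or moved by over 1.5 times, among them BUB3.1 (to -0.24), CDKB1;1 (to -0.23), CYCB3;1 (to -0.25) and CYCA2;3 (to -0.13). Without wild type 1 it was 9 of the 38, among them MYB3R4 (to -0.26), CYCA1;1 (to -0.20) and MAP65-3 (to -0.080). Leaving out each of the other 4 samples moved 2 to 5 of the genes as far.

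**Figure D4:**
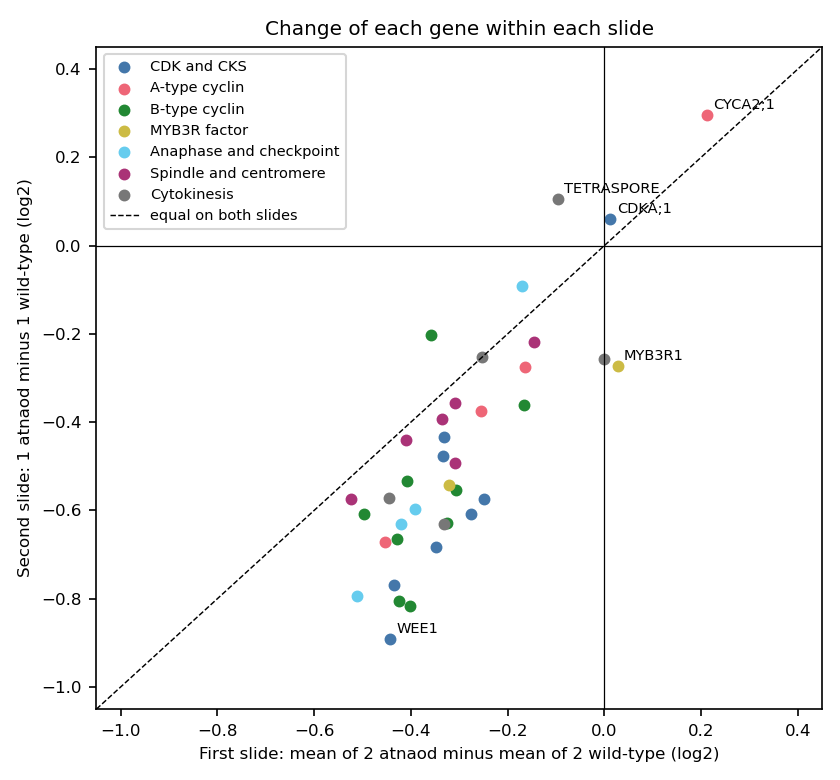
Difference of each of the 38 genes on the first slide (x axis, 2 samples per genotype) and on the second slide (y axis, 1 sample per genotype), both as atnaod minus wild type in log2 units, with the diagonal of equal differences. Points below the diagonal, 32 of 38, had a lower difference on the second slide than on the first.

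A further 83 genes of cell division, listed by function but with earlier results of these data known, were read beside the 38. Of the 83, 81 were tested. Their median difference was -0.11, with 62 of 81 below 0, against 51.2% of all genes. Limma called 3 lower and 2 higher, close to the 3.06% and 2.72% of all genes, so these counts do not set the list apart. At an unadjusted p under 0.05, 21 were lower and 3 higher, against 13.9% and 11.9% of all genes. BUBR1, a protein of the same checkpoint as MAD2, was lower, at -0.65 (SE 0.103, adjusted p 0.0282). The loci AT4G39630 and AT3G14190, both on the list of spindle, checkpoint and centromere genes, also passed, at -0.71 and -0.58. That list had 15 of 17 genes below 0 and a median of -0.31, the list median nearest to that of the 38. None of the 83 was called with the deposited values, unmodified normexp, no filter on dim probes or the first slide alone. The same held when wild type 2, wild type 3, atnaod 2 or atnaod 3 was left out.

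The other division lists lay closer to 0. The D-type cyclins, which act at the entry into the cycle, had a median of 0.00 with 5 of 10 below 0. CYCD7;1, which acts in the last division of the stomatal lineage, was called higher at 0.75 (adjusted p 0.0321, and 0.0513 with the replicate block), and CYCD4;1 stood at -0.46 without passing. The CDK inhibitors had a median of 0.02 with 4 of 9 below 0, and the 2 with the lowest p, KRP5 at -0.33 and KRP3 at -0.27, did not pass. The anaphase-promoting complex and its activators had a median of -0.10, with CDC27A at 0.36 and CCS52B at -0.36, neither past the adjusted threshold. The other cytokinesis genes had a median of -0.10. Among them SCD1, needed for cytokinesis in guard mother cells, was called higher at 0.56 (adjusted p 0.0378, and 0.0542 with the replicate block). MKK6, a kinase of the cascade that HINKEL activates, stood at -0.57 (adjusted p 0.0688) and passed with the block (adjusted p 0.0477). Of the remaining A- and B-type cyclins, 5 of 6 were below 0 with a median of -0.19. The 2 with the lowest p were CYCA2;4 at -0.46 and CYCB1;5 at -0.22, neither past the adjusted threshold, and MYB3R3 and MYB3R5 had a median of -0.08.

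**Figure D5:**
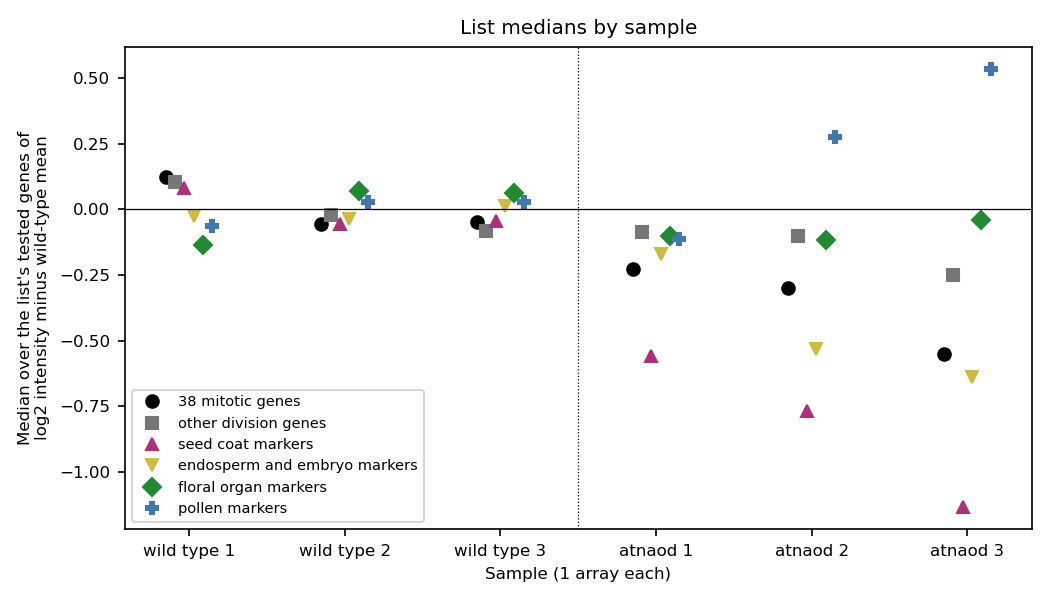
Median over the tested genes of each list of the log2 level minus the gene's wild-type mean (y axis), by sample (x axis, 1 array each), for the 38 genes, the other division genes and the 4 marker lists. In atnaod 1 to 3 the 38 genes lie at -0.23, -0.30 and -0.55, the seed coat markers at -0.56, -0.77 and -1.13, and the pollen markers at -0.11, 0.27 and 0.53.

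Markers of tissues in the flower were read beside these genes. All 8 seed coat markers were tested and 5 were called lower, against 3.06% of all genes, and 7 with the replicate block, against 2.72%. No marker of any list was called with the deposited values, unmodified normexp, no filter on dim probes or the first slide alone. The median of the 8 seed coat markers was -0.81, with TT16 nearest to 0 at -0.10 (limma adjusted p 0.494). Their summed linear level, relative to the array's 75th percentile, was 9.13 to 10.8 in wild type and 4.83 to 6.75 in atnaod. BAN, the brightest of the 8, weighed most in this sum. TT2, TT8 and MYB5, transcription factors of pigment and mucilage formation in the seed coat, were called lower at -1.02, -0.65 and -0.83. Of 12 endosperm and early embryo markers, 9 were tested, with a median of -0.56, and IKU2 and PHE1 were above background on no array. CLE8 (-2.06) and LEC1 (-0.68) were called lower, and 7 of the 9 had differences below 0. MEA at 0.38 and WOX9 at 0.05 lay above 0. The summed level was 0.809 to 0.904 in wild type and 0.637 to 0.739 in atnaod. WOX9, the brightest of the tested genes, weighed most in this sum.

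The floral organ markers had a median of -0.09, were all 11 above background on all arrays, and summed to 57.5 to 69.3 in wild type and 54.9 to 61.5 in atnaod. STK, SHP1 and SHP2, which mark ovules and carpels, were called lower at -0.73, -0.49 and -0.48. CRC, a carpel and nectary gene of the same list named after its value was seen, lay the other way at 0.59 (SE 0.141, adjusted p 0.0592). Its 3 atnaod values were all above its 3 wild-type values, and it passed with the replicate block (adjusted p 0.0434). Of the 22 pollen markers, HAP2 and DUO1 were above background on no array. The 20 tested had a median of 0.25 with none called. At an unadjusted p under 0.05, 3 were higher, against 11.9% of all genes. The summed level of the pollen markers was 22.9 to 27.2 in wild type and 19.9, 27.1 and 38.2 in atnaod 1 to 3. VGD1, the brightest of the tested genes, weighed most in this sum. By list median and summed level, the seed coat list and the endosperm and embryo list were thus lowest, and the pollen list highest, in atnaod 3. The median of the 38 genes was lowest in the same sample. Single markers did not all follow their list: CLE8 was lowest in atnaod 3, but LEC1 stood at -5.54, -5.45 and -5.44 in atnaod 1 to 3. The part of these tissues in the values of the 38 genes was not tested.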

How the data were processed

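Total RNA of 6 samples was labelled with Cy3 (200 ng each) and read on single-colour Agilent arrays. Per the file headers, spot intensity was extracted with Feature Extraction 10.5.1.1 (10.5 per the submitters' processing notes), with background subtracted and no normalization between arrays. The deposited values are intensity too. In each column they were checked to equal the spots' median signal multiplied by a constant.

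Here log2 of the processed intensity minus each array's 75th percentile was used. Outlier spots (2 to 35 per array) were left out and spots of a probe averaged. A probe was tested where every array of either genotype read it well above background (32497 of 43603 probes), and the brightest tested probe stood for its gene. Genes were fitted with limma 3.58.1 in R 4.3.3 (with the data.table package, version 1.17.8), two-sided, 3 against 3, with Benjamini-Hochberg adjustment over 24458 genes. A gene was called at an adjusted p under 0.05. Intervals are 95% intervals of this fit, and the number of arrays limits their precision. The fit was checked on simulated data. All 174 listed loci matched RefSeq (TAIR10.1), used for names only. Loci whose symbol there is only the locus code are given by that code.

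Replicate numbers come from the sample titles. The deviations from the genotype mean correlated, across genes and between samples of the same number, at 0.190, 0.111 and 0.535, all over 0.1. Mismatched samples of the first slide also passed that value, at 0.215 (wild type 1 with atnaod 2) and 0.105 (wild type 2 with atnaod 1), so the data do not tell number from slide for samples 1 and 2. By the minimum of 0.1 the numbers were taken as pairs and a fit with the replicate number as a block stands beside the main one. Number 3 is also the second slide.

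The genes and lists were chosen with earlier results of these data known. Named are all 38 genes, the other division genes called and up to 2 per list with the lowest p, and up to 3 per marker list. Markers above background on no array are also named, and CRC, MEA, WOX9, TT16, BAN and VGD1 were added after their values were seen. Promoter motifs were not analysed here.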

Additional observations from a re-analysis of the deposited data

How the results depend on the processing

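The median of the 38 genes stayed between -0.39 and -0.32 under the settings tried, except with normexp on the unmodified local backgrounds (-0.60, where the median of all genes was -0.24), on the second slide alone (-0.54), and when 1 sample was left out (-0.50 to -0.29). Called members numbered 0 in the main fit, 1 with quantile normalization, 3 where all 6 arrays had to be above background, 5 with the replicate block, 6 with the slide as a block, 8 with a trended and robust prior, 15 with array weights, and 0 to 8 when 1 sample was left out; none were called with normexp, the deposited values, median centring, all probes kept, the mean over probes or the first slide alone. The replicate block changed no other call among the 38 genes. Over these 19 alternatives 34 members kept their sign, 17 were called in at least 1 and MAD2 in 7. How many of all genes were called in at least 1 was not counted, so the 17 have no share beside them. With quantile normalization 1470 of all genes were called, and 1580 of 23482 where all 6 arrays had to be above background. Signs turned for CDKA;1 (-0.00174 with modified normexp, -0.000968 with the deposited values, -0.0318 to 0.0726 when 1 sample was left out), CYCA2;1 (-1.13 with unmodified normexp), MYB3R1 (0.0274 on the first slide alone, -0.13 to 0.0348 when 1 sample was left out) and TETRASPORE (0.0108 with modified normexp, 0.00861 with the deposited values, 0.0191 with array weights, -0.0930 to 0.0148 when 1 sample was left out). Differences changed sign or moved by over 1.5 times for 9 members with modified normexp, 9 with the deposited values, 26 with unmodified normexp, 5 with array weights, 4 on the first slide alone and 2 with median centring. Of all genes 1414 were called, against 222 with modified and 4 with unmodified normexp, 12 with the deposited values, 22 without a filter, 2259 with the trended prior, 3855 with array weights, 2123 with the slide block, 13 on the first slide alone, 1297 with the replicate block, and 15 to 1551 when 1 sample was left out (576 leaving out wild type 1, 21 wild type 2, 17 wild type 3, 1551 atnaod 1, 15 atnaod 2 and 139 atnaod 3). Of the other division genes 5 were called, against 2, 0, 0, 0, 8, 10, 8 and 0 in the same first 8 settings, and 0 to 7 with 1 sample left out. Of the markers 10 were called, against 1 with modified normexp, 0 with unmodified normexp, the deposited values, no filter or the first slide alone, 17 with array weights, and 0 to 16 with 1 sample left out. The cause of these shifts was not tested, except that 5 spots of wild type 1 had local backgrounds of up to 394525 against a median of 34. Setting these to the array median, the modified normexp, was chosen after seeing the data. Normexp was run on median spot signals. The count of promoter motifs was not run. Dim probes and 3 arrays per genotype limit what could be called.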
